A study of Mus musculus with 14 samples.

Results

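Collagen chain genes were taken as every gene whose GENCODE M21 symbol is Col, a type number, the letter a and a chain number. The rule matched 44 of the 35519 mouse genes in the tables, and 43 of them had at least 1 count in at least 1 library; Col20a1 had none. The study measured primary cell lines from mouse embryos at E13.5 that carried a knockout-first allele of H3f3a, a gene for the replication-independent histone H3.3. It profiled KO neurospheres (3 lines), WT neurospheres (3 lines), KO mouse embryonic fibroblasts (MEFs, 5 lines) and WT MEFs (3 lines), all untreated. Neurospheres, floating cultures of neural stem and precursor cells, were grown from heads, and MEFs from the body without head and internal organs. The labels call the lines independent and give neither strain nor sex.

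Collagens are secreted or membrane-anchored trimers whose chains wind into a triple helix made of repeated Gly-X-Y triplets. The chains of 1 trimer are often made by different genes, so type I collagen needs Col1a1 and Col1a2, and type VI needs Col6a1, Col6a2 and a longer chain such as Col6a3. Fibrillar types build the cables of skin, tendon and bone, type IV the sheet of basement membranes, and fibril-associated collagens (FACITs) sit on fibril surfaces. Fibroblasts are the main makers of fibrillar collagen, while brain tissue holds little of it outside vessels and meninges.

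The libraries held 1669867 to 3296493 counts each, from 3′ ends of polyadenylated RNA, and levels are given as CPM, a library's counts divided by its total and scaled by TMM factors over all 14 libraries. Values in several lines are listed in the order of the line numbers. H3f3a averaged 51.9 ± 23.1 CPM in KO neurospheres and 2149 ± 232 CPM in WT neurospheres (SD, n = 3 each), and 15.3 ± 4.72 CPM in KO MEFs (n = 5) and 1040 ± 331 CPM in WT MEFs (n = 3). Summed over 10 neural stem cell markers such as Sox2 and Nes, the neurosphere lines held 7171 to 11040 CPM and the MEF lines 73.1 to 333 CPM. Over 10 fibroblast markers such as Pdgfra and Thy1, the neurosphere lines held 71.3 to 157 CPM and the MEF lines 5272 to 6185 CPM. Markers of other cells were low in the MEFs for endothelium (5.74 to 33.5 CPM over 8 genes), skeletal muscle (0 to 6.15 CPM over 8) and epithelium (3.65 to 15.4 CPM over 7). Macrophage and blood markers summed to 16.0 to 156 CPM in the MEF lines, and mural markers, which cultured fibroblasts share, to 1915 to 5671 CPM over 8 genes each.

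Among the MEFs, 2 lines stood apart in collagen expression, KO MEFs 3 and WT MEFs 2, 1 line of each genotype. Col10a1, the short-chain collagen of growth plate cartilage, had 375 CPM in KO MEFs 3 and 278 CPM in WT MEFs 2, against 5.16 to 12.7 CPM in the other 6 lines. Col7a1, the anchoring fibril chain of skin, had 0.969 CPM in KO MEFs 3 and 0.717 CPM in WT MEFs 2, against 19.5 to 36.7 CPM in the other 6. Hoxd13, a homeobox gene of the distal limb and tail end, had 209 CPM in KO MEFs 3 and 249 CPM in WT MEFs 2, against 4.15 to 32.5 CPM in the other 6. These lines were not made into groups for any test, and comparisons of genotypes are given with and without them.

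Among the neurospheres, WT neurospheres 1 held 25 counts of Col1a1, 56 of Col1a2, 41 of Col3a1 and 23 of Col6a3. The other 5 neurosphere lines held 0 to 2, 0 to 7, 0 to 1 and 0 to 2 counts of the same genes. The 10 fibroblast markers summed to 157 CPM in WT neurospheres 1 and to 71.3 to 115 CPM in the other 5. In bulk RNA, fewer cells of a type and less RNA per cell cannot be told apart.

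The 250 bases before the start of 4 members that separated KO MEFs 3 and WT MEFs 2 from the other MEF lines are shown to let their promoters be compared, 3 of them higher in those lines (Col10a1, Col3a1, Col8a1) and 1 lower (Col7a1). They come from RefSeq on GRCm38.p6, lie outside GENCODE exons, and are written 5′ to 3′ on the gene's strand. Capitals mark the TATA box (TATAAA), the CAAT box (CCAAT) and the GC box (GGGCGG) on either strand, which did not overlap one another.
Col10a1 (chr10:34389731-34389980, plus strand): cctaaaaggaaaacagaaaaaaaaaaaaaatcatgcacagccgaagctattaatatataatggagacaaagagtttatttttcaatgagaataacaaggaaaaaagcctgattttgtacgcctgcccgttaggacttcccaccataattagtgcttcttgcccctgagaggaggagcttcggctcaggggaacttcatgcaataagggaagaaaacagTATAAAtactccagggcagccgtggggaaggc
Col3a1 (chr1:45311288-45311537, plus strand): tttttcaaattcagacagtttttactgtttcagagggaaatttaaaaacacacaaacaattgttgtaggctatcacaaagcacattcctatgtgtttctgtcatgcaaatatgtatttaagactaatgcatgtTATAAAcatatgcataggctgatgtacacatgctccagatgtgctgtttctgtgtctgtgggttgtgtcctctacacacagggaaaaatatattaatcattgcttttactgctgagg
Col8a1 (chr16:57754738-57754987, minus strand): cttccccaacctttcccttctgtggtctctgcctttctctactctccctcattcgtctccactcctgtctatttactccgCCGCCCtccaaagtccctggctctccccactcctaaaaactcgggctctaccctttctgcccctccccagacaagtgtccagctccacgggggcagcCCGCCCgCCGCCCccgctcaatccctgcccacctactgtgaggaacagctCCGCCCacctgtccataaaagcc
Col7a1 (chr9:108953336-108953585, plus strand): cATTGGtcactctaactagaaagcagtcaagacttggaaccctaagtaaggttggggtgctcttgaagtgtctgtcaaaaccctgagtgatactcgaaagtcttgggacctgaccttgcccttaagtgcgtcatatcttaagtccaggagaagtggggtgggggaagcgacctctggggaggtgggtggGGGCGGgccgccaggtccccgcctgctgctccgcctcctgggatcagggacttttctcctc

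TATAAA began 32 bases before the start of Col10a1 and 117 bases before that of Col3a1, and neither window held CCAAT or GGGCGG. Col8a1 had 4 copies of GGGCGG, all on the other strand, at 170, 73, 66 and 23 bases before its start. Col7a1 had 1 GGGCGG at 61 bases and 1 CCAAT on the other strand at 249 bases. Of all 32851 promoter windows of this length, 12.4% held TATAAA, 33.8% CCAAT and 32.7% GGGCGG. Of the 35 collagen genes matched in the RefSeq table, 5 had TATAAA, 13 CCAAT and 21 GGGCGG. Col1a1, Col2a1, Col4a3, Col5a2, Col9a3, Col12a1, Col14a1, Col22a1 and Col26a1 were not matched.

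Collagen chains took a far smaller share of the RNA in neurospheres than in MEFs, and the make-up of what remained was different. The 44 genes together held 0.0240% ± 0.00714 of the counts in KO neurospheres and 1.98% ± 0.462 in KO MEFs (SD, n = 3 and 5), and 0.0286% ± 0.00505 in WT neurospheres and 1.94% ± 0.161 in WT MEFs (n = 3 each). In CPM the sums were 237 ± 76.3 in KO neurospheres, 280 ± 55.3 in WT neurospheres, 20140 ± 4455 in the KO MEF lines and 19650 ± 1245 in WT MEFs. The KO MEF lines spanned 16090 to 26370 CPM, a range that takes in all 3 WT lines (18690 to 21060), and the KO neurosphere lines spanned 164 to 316 CPM against 218 to 322 CPM in WT neurospheres. Fibrillar chains made up 29.7% of collagen counts in KO neurospheres and 34.8% in WT neurospheres, against 86.1% in KO MEFs, with 84.9% in WT MEFs. Basement membrane chains made up 33.6% in KO neurospheres and 21.9% in WT neurospheres, against 3.41% in KO MEFs, with 3.10% in WT MEFs. FACIT chains made up 26.1% in KO neurospheres and 27.3% in WT neurospheres, against 3.41% in KO MEFs and 3.15% in WT MEFs. Sums over the members carry no test here.

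**Figure D1:**
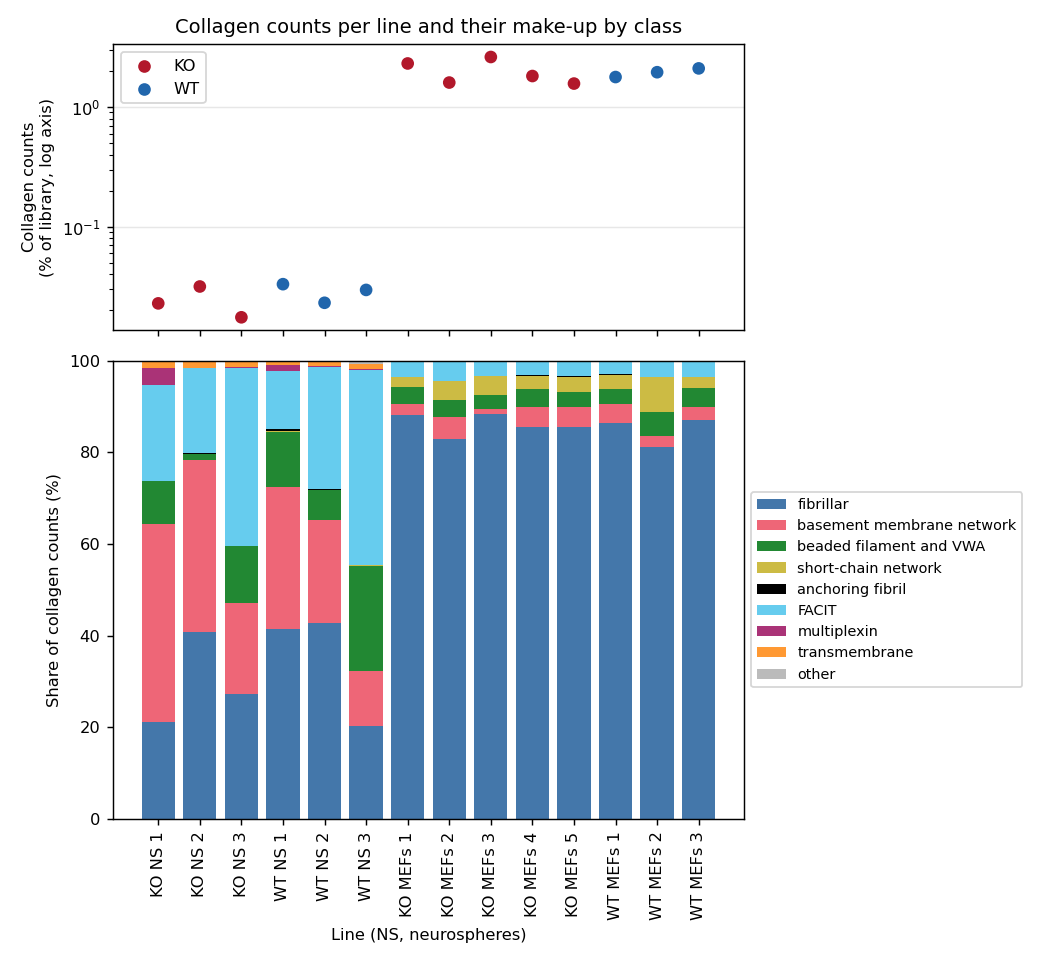
Upper plot: counts of all 44 collagen genes as a percent of the library (log axis) in each of the 14 lines, KO in red and WT in blue. Lower plot: the share of those counts held by each structural class in percent, with fibrillar chains at 20.2% to 42.8% in the 6 neurosphere lines and at 81.2% to 88.3% in the 8 MEF lines.

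By mean level, no member reached 100 CPM in KO neurospheres or WT neurospheres, while 13 did in KO MEFs and 13 in WT MEFs. A further 8 members had 10 to 100 CPM in KO neurospheres, 9 in WT neurospheres, 8 in KO MEFs and 7 in WT MEFs. Of the 44, 28 had enough counts to be tested in at least 1 comparison. The other 16 had at most 7.79 CPM in any line, namely Col9a2, Col4a6, Col25a1, Col13a1, Col22a1, Col19a1, Col26a1, Col23a1, Col4a3, Col4a4, Col6a6, Col11a2, Col6a4, Col17a1, Col6a5 and Col20a1, in falling order. Col4a6, the chain next to Col4a5 on the X chromosome, had 3.29, 4.19 and 0.349 CPM in KO neurospheres and 1.145, 1.86 and 0 CPM in WT neurospheres. In MEFs it had 0, 0.342, 0.484, 0.346 and 0.752 CPM in the KO lines and 3.56, 7.17 and 0.912 CPM in the WT lines. All 3 WT MEF lines lay above all 5 KO MEF lines for Col4a6, at levels too low to be tested, and WT MEFs 2 held 20 of the 32 WT counts. The same held for Col11a2, with 0 to 0.344 CPM in KO MEFs and 0.359 to 0.912 CPM in WT MEFs, but only after scaling. KO MEFs 1 and WT MEFs 2 held 1 count of Col11a2 each. For Col4a6, KO MEFs 5 held 2 counts and WT MEFs 3 held 3. Of all genes tested in MEFs, 1.85% stood apart by genotype, a share that leaves out genes with too few counts.

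**Figure D2:**
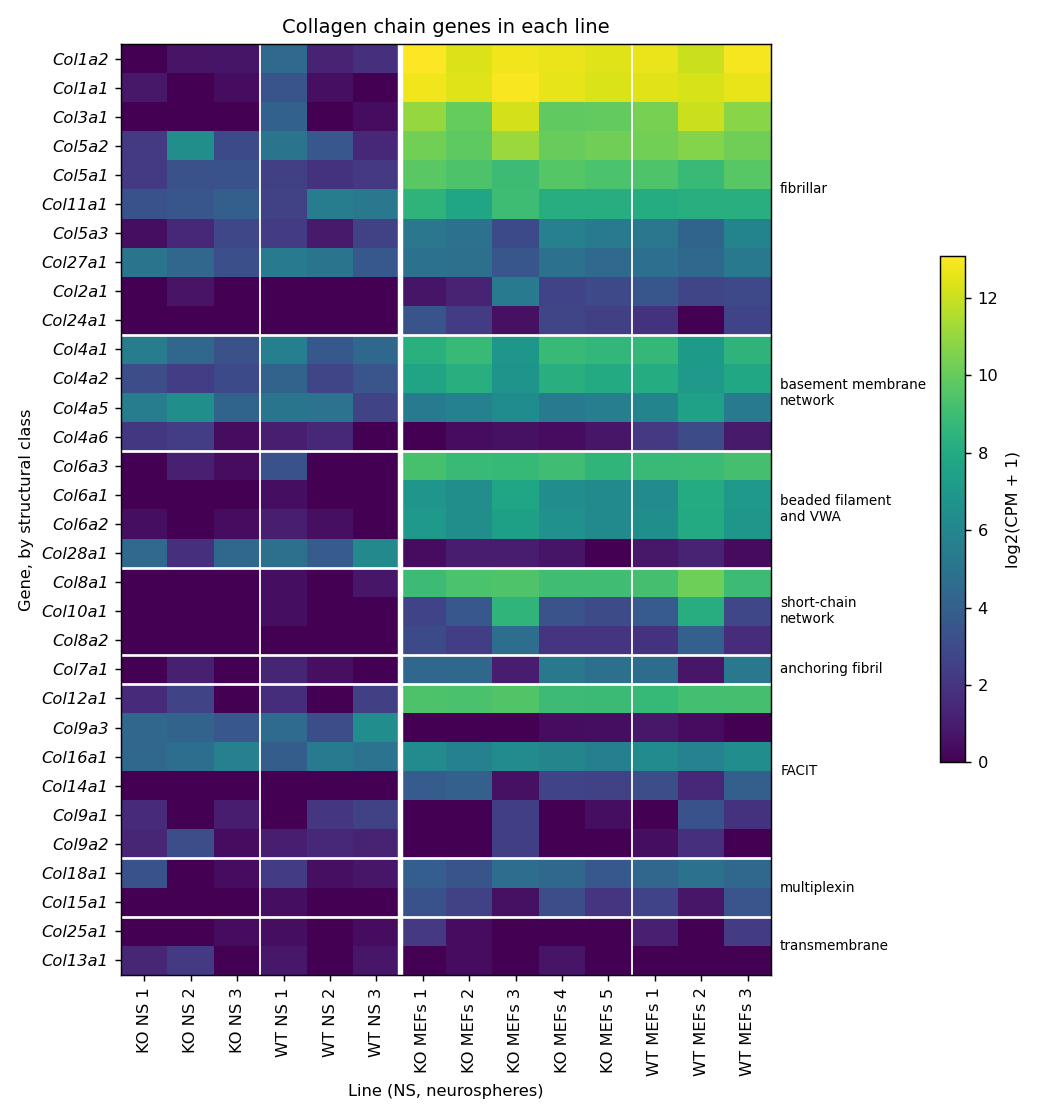
Level of the 32 members with at least 3 CPM in 1 line, as log2(CPM + 1) by colour, with genes in rows by structural class and the 14 lines in columns, KO left of WT and neurospheres (NS) left of MEFs. Most rows are dark in neurospheres and bright in MEFs, and Col9a3 and Col28a1 are the reverse.

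Neurospheres and MEFs were compared within each genotype, so that the KO lines give the difference in libraries that the WT comparison did not use. In WT lines, 20 of 22 tested members differed, 18 lower and 2 higher in neurospheres (edgeR quasi-likelihood test, adjusted p under 0.05). Over all 11084 genes tested, 41.6% differed, 20.8% lower and 20.8% higher. In KO lines, 24 of 26 differed, 23 lower and 1 higher, against 51.5% of all 11417 genes, 26.1% lower and 25.4% higher. The members' median log2 difference was -6.91 in WT and -6.64 in KO lines, where the median of all genes was 0.02 and -0.02. With members at 0 counts in neurospheres set to the bound that 3 counts allow, the medians were -5.35 and -5.28. A member near 0 in 1 cell type entered these tests only through its level in the other and so had to differ. This holds for the members near 0 in neurospheres and for the higher ones, which were near 0 in MEFs. The counts of members called are given as a description. The lines of the 2 cell types did not overlap for 21 of 22 members in WT lines (57.1% of all genes) and for 22 of 26 in KO lines (49.8% of all genes).

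Type I and type III collagen, the main fibrils of connective tissue, were close to absent from neurospheres. Col1a1 (chr11:94936224-94953042, plus strand) had 0.824, 0 and 0.349 CPM in KO neurospheres and 7184, 5579, 7970, 6172 and 5106 CPM in KO MEFs. WT lines gave 9.54, 0.466 and 0 CPM in neurospheres and 5826, 4989 and 6436 CPM in MEFs. The KO neurospheres held 3 counts of it in all. Pooled over lines and divided by scaled library sizes, this was 14700-fold below the KO MEFs (95% counting interval 5030 to 71200). All folds from pooled counts or count floors below are scaled in this way. The WT difference of Col1a1 was -10.69 on the log2 scale (SE 1.22, edgeR adjusted p = 0.000779). Col1a2 (chr6:4504814-4541544, plus strand), which makes the partner chain, had 0, 0.599 and 0.698 CPM in KO neurospheres and 8610, 5260, 7192, 6546 and 5461 CPM in KO MEFs. It had 21.4, 1.40 and 2.48 CPM in WT neurospheres and 6655, 4109 and 7741 CPM in WT MEFs, a difference of -9.47 (SE 1.099, edgeR adjusted p = 0.000815). The scaled counts of the 3 KO neurosphere lines were 15300-fold below the KO MEFs for Col1a2 (95% counting interval 5240 to 74200).

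Col3a1 (chr1:45311538-45349706, plus strand), the type III chain of skin and vessel walls, had 0 counts in all 3 KO neurosphere lines and 2036, 1006, 4876, 956 and 971 CPM in KO MEFs. Against a floor of 3 counts over the group, it was at least 4190-fold lower in KO neurospheres. In WT neurospheres it had 15.7, 0 and 0.354 CPM, against 1359, 4126 and 1730 CPM in WT MEFs (log2 difference -8.76, SE 1.41, edgeR adjusted p = 0.00289). Every neurosphere line lay below every MEF line for these 3 genes, and most of what WT neurospheres held was in line 1. Without that line the fitted WT difference was -11.56 for Col1a2, and -14.48 for Col1a1 and -13.25 for Col3a1, each of which then rested on 1 neurosphere count.

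The minor fibrillar chains, which start and size fibrils, were lower in neurospheres by less. Col5a1 had 3.71, 8.39 and 8.72 CPM in KO neurospheres, against 855, 682, 493, 790 and 667 CPM in KO MEFs (log2 difference -6.63, SE 0.37, edgeR adjusted p = 1.73e-06). In WT lines it had 4.58, 2.79 and 3.54 CPM in neurospheres, against 718, 440 and 827 CPM in MEFs (-7.46, SE 0.39, edgeR adjusted p = 5.48e-05). Col5a2 was uneven among neurospheres, with 3.71, 88.1 and 6.63 CPM in KO lines and 31.7, 10.7 and 1.77 CPM in WT lines. The KO neurosphere line 2 was the high one, and the MEF lines held 913 to 2194 CPM of Col5a2. Its log2 difference was -5.37 in KO lines (SE 1.02, edgeR adjusted p = 0.00204) and -6.49 in WT lines (SE 0.90, edgeR adjusted p = 0.00158). Col11a1, a chain of cartilage fibrils that soft tissue also makes, had 8.65, 10.2 and 14.3 CPM in KO neurospheres and 363, 216, 511, 281 and 287 CPM in KO MEFs. WT lines gave 4.96, 45.6 and 36.5 CPM in neurospheres and 274, 304 and 287 CPM in MEFs. It was lower in neurospheres in both genotypes, by -4.87 in KO (SE 0.36, edgeR adjusted p = 6.54e-06) and -3.29 in WT lines (SE 0.67, edgeR adjusted p = 0.00755).

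Col5a3 was lower in neurospheres by -3.45 in KO (SE 0.80, edgeR adjusted p = 0.00553) and -3.48 in WT lines (SE 0.64, edgeR adjusted p = 0.00444). Col24a1 had 0 counts in all 6 neurosphere lines, against 0 to 9.64 CPM in the MEF lines, and it was at least 11.7-fold lower in KO neurospheres than in KO MEFs. Col2a1, the main fibril chain of cartilage, had 0, 0.599 and 0 CPM in KO neurospheres and 0 counts in WT neurospheres. In MEFs it had 0.689, 1.37, 38.8, 5.19 and 6.39 CPM in KO lines and 10.3, 5.74 and 6.39 CPM in WT lines, so that KO MEFs 3 alone passed 11 CPM. The 3 KO neurosphere lines held 1 count of it, after scaling 61.1-fold below the KO MEFs (95% counting interval 11 to 2410). KO MEFs 3 held 80 of the 118 counts in KO MEFs. Col27a1, a fibrillar chain of developing cartilage, was the fibrillar member with no call in either genotype. It had 31.3, 19.2 and 8.03 CPM in KO neurospheres and 29.3, 27.3, 10.2, 28.4 and 21.1 CPM in KO MEFs (log2 difference -0.26, 95% interval -1.27 to 0.74). In WT lines it had 41.2, 31.2 and 10.99 CPM in neurospheres and 26.5, 19.7 and 37.7 CPM in MEFs (0.01, 95% interval -1.13 to 1.15), and its ranges overlapped in both genotypes.

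Of the basement membrane chains, Col4a1 and Col4a2 were lower in neurospheres and Col4a5 had no call. Col4a1 and Col4a2 make the common type IV trimer, and they lie head to head on chromosome 8 with RefSeq starts at 11312826 (minus strand) and 11312805 (plus strand), so that their first 22 bases overlap. Col4a1 had 43.2, 18.6 and 8.37 CPM in KO neurospheres and 48.9, 11.2 and 19.9 CPM in WT neurospheres, against 121 to 456 CPM in the MEF lines. Col4a2 had 7.41, 4.19 and 6.63 CPM in KO neurospheres and 17.2, 5.59 and 9.92 CPM in WT neurospheres, against 109 to 303 CPM in the MEF lines. Both fell below every MEF line in every neurosphere line, Col4a1 with a log2 difference of -3.90 in KO (SE 0.62, edgeR adjusted p = 0.000777) and -3.48 in WT lines (SE 0.64, edgeR adjusted p = 0.00501). For Col4a2 the log2 difference was -5.20 in KO (SE 0.43, edgeR adjusted p = 1.41e-05) and -4.20 in WT lines (SE 0.47, edgeR adjusted p = 0.000615). Col4a5, an X-linked chain of kidney, eye and ear basement membranes, had 44.5, 91.1 and 17.5 CPM in KO neurospheres and 42.0, 53.0, 80.9, 41.5 and 46.6 CPM in KO MEFs. WT lines gave 32.8, 30.3 and 5.32 CPM in neurospheres and 58.6, 179 and 39.5 CPM in MEFs. Its log2 difference was -0.05 in KO (95% interval -1.05 to 0.95) and -2.00 in WT lines (95% interval -3.82 to -0.17, edgeR adjusted p = 0.0758), with no call in either.

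Type VI collagen, which forms beaded filaments around cells, was at or near 0 in neurospheres. Col6a1 had 0 counts in KO neurospheres, at least 249-fold below KO MEFs, where it had 114, 87.8, 205, 83.0 and 71.8 CPM. In WT neurospheres it had 1 count, after scaling 1190-fold below WT MEFs (95% counting interval 214 to 47100), which had 77.2, 265 and 127 CPM. Col6a2 had 0.412, 0 and 0.349 CPM in KO neurospheres and 1.145, 0.466 and 0 CPM in WT neurospheres, against 74.1 to 250 CPM in the MEF lines. Col6a3 had 0, 1.198 and 0.349 CPM in KO neurospheres and 607, 461, 431, 533 and 372 CPM in KO MEFs. It had 8.78, 0 and 0 CPM in WT neurospheres and 452, 487 and 598 CPM in WT MEFs (log2 difference -7.38, SE 1.12, edgeR adjusted p = 0.00234). All 23 WT neurosphere counts of Col6a3 were in line 1.

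The short-chain network collagens were the class furthest from neurospheres, with 0 counts of all 3 genes in all KO neurosphere lines. Col8a1, a chain of the membrane under corneal endothelium and of vessel walls, had 501, 655, 704, 530 and 531 CPM in KO MEFs, at least 1340-fold above KO neurospheres. WT neurospheres held 3 counts of it, after scaling 1880-fold below WT MEFs (95% counting interval 642 to 9100), which had 584, 1176 and 495 CPM. Col8a2, its partner chain, had 0 counts in WT neurospheres and 2.13 to 25.7 CPM in the MEF lines. Col10a1 was at least 149-fold lower in KO neurospheres than in KO MEFs. After scaling, its 1 count in WT neurospheres was 729-fold below WT MEFs (95% counting interval 131 to 28800). These folds rest on 1 line each, since KO MEFs 3 held 775 of the 866 counts in KO MEFs and WT MEFs 2 held 776 of the 827 in WT MEFs. Without those lines the fitted log2 difference was -7.38 in KO and -5.69 in WT lines, against -10.65 and -9.09 with them.

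Of the FACITs, which bind fibril surfaces, Col12a1 and Col14a1 followed the fibrillar chains and Col9a3 did the reverse. Col12a1, a chain of tendon and ligament, had 2.06, 5.39 and 0 CPM in KO neurospheres and 682, 635, 740, 492 and 474 CPM in KO MEFs (log2 difference -8.09, SE 0.68, edgeR adjusted p = 1.71e-05). In WT lines it had 2.29, 0 and 4.61 CPM in neurospheres and 427, 583 and 590 CPM in MEFs (-7.73, SE 0.71, edgeR adjusted p = 0.000336). Col14a1 had 0 counts in all neurosphere lines, at least 19.2-fold below KO MEFs in KO lines and at least 21.2-fold below WT MEFs in WT lines. Col16a1 had 20.6, 25.8 and 51.6 CPM in KO neurospheres and 13.4, 42.8 and 30.1 CPM in WT neurospheres, against 48.5 to 85.2 CPM in the MEF lines. It was lower in neurospheres by -0.93 in KO (SE 0.33, edgeR adjusted p = 0.0354) and by -1.31 in WT lines (SE 0.42, edgeR adjusted p = 0.0392), and KO neurospheres 3 lay inside the KO MEF range. Without KO MEFs 3 its KO difference was -0.83 and no longer passed (edgeR adjusted p = 0.0519).

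The members higher in neurospheres were Col9a3 and Col28a1. Col9a3 (chr2:180597790-180622189, plus strand), a type IX chain best known from cartilage and the eye, had 18.9, 16.8 and 10.8 CPM in KO neurospheres and 0, 0, 0, 0.346 and 0.376 CPM in KO MEFs. In WT lines it had 22.9, 7.92 and 85.4 CPM in neurospheres and 0.791, 0.359 and 0 CPM in MEFs. It rose in neurospheres in both genotypes, by 6.30 in KO (SE 0.64, edgeR adjusted p = 4.35e-05) and 6.63 in WT lines (SE 1.23, edgeR adjusted p = 0.00505). Its trimer partners Col9a1 and Col9a2 stayed at 0 to 4.96 and 0.349 to 7.79 CPM in the neurosphere lines. Col28a1 (chr6:7997808-8192617, minus strand), a chain with von Willebrand A domains that glia around peripheral nerves make, had 21, 2.40 and 19.5 CPM in KO neurospheres and 27.5, 13.0 and 69.1 CPM in WT neurospheres. The MEF lines had 0 to 1.43 CPM of Col28a1, and it rose by 5.42 in WT neurospheres (SE 0.82, edgeR adjusted p = 0.0021). Col28a1 did not have enough counts to be tested between KO neurospheres and KO MEFs. Near 0 in MEFs, Col9a3 and Col28a1 entered the tests only through their neurosphere levels, so their p-values are given as a description.

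Type XVIII and type XV collagens, the multiplexins of basement membrane zones, were low in neurospheres. Col18a1 had 8.65, 0 and 0.349 CPM in KO neurospheres and 13.8, 9.57, 24.2, 19.7 and 11.3 CPM in KO MEFs (log2 difference -2.31, SE 0.87, edgeR adjusted p = 0.0497). In WT lines it had 3.82, 0.466 and 0.709 CPM in neurospheres and 19.0, 28.7 and 20.1 CPM in MEFs (-3.68, SE 0.65, edgeR adjusted p = 0.00355). KO neurospheres 1 held nearly all of the KO neurosphere counts of Col18a1, and without KO MEFs 3 the KO difference was -2.08 and no longer passed (edgeR adjusted p = 0.0673). Col15a1 had 0 counts in KO neurospheres and was at least 12.3-fold higher in KO MEFs, and Col7a1 had 0, 1.198 and 0 CPM in KO neurospheres. Col7a1 averaged 20.97 ± 13.1 CPM in KO MEFs (n = 5). After scaling, its 2 counts in KO neurospheres were 76.9-fold below KO MEFs (95% counting interval 21.3 to 635). The cell types overlapped for Col7a1 in both genotypes. KO MEFs 3 (0.969 CPM) lay below KO neurospheres 2 (1.198 CPM), and WT MEFs 2 (0.717 CPM) below WT neurospheres 1 (1.527 CPM).

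KO MEFs 3 and WT MEFs 2 held the extreme values of many collagen genes among the 8 MEF lines. Of the 24 members that averaged 5 CPM or more in MEFs, 9 had their 2 highest values in those 2 lines and 8 their 2 lowest, 37.5% and 33.3%, where 18.9% and 21% of all 9925 genes at that level did so. The 9 high ones were Col3a1, Col4a5, Col5a2, Col6a1, Col6a2, Col8a1, Col8a2, Col10a1 and Col18a1. The 8 low ones were Col4a1, Col4a2, Col5a1, Col5a3, Col7a1, Col14a1, Col15a1 and Col27a1. The other 7, among them Col1a1, Col1a2, Col6a3, Col11a1 and Col12a1, did neither. Both directions held chains of fibrils and of basement membranes. The coefficient of variation over the 8 lines was 16.6% for Col1a1 and 18.7% for Col12a1, but 71.5% for Col3a1 and 67.0% for Col7a1. No test was made between these lines, which were singled out by their expression.

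Type III collagen was among the largest shifts in CPM, with 4876 CPM of Col3a1 in KO MEFs 3 and 4126 CPM in WT MEFs 2, against 956 to 2036 CPM in the other 6 lines. Col6a1 had 205 CPM in KO MEFs 3 and 265 CPM in WT MEFs 2, against 71.8 to 127 CPM in the other 6. Col4a1 had 121 CPM in KO MEFs 3 and 137 CPM in WT MEFs 2, against 312 to 456 CPM in the other 6. The 2 lines lay outside the range of the others for all 3 genes. Col8a2 had 25.7 CPM in KO MEFs 3 and 15.1 CPM in WT MEFs 2, against 2.13 to 6.54 CPM in the other 6. Col4a5 was unequal between them, with 80.9 CPM in KO MEFs 3 and 179 CPM in WT MEFs 2, against 39.5 to 58.6 CPM in the other 6. Nt5dc1, which spans Col10a1 on the opposite strand, had 15.5 CPM in KO MEFs 3, 15.1 CPM in WT MEFs 2 and 7.61 to 15.4 CPM in the other 6, next to or inside their range.

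**Figure D3:**
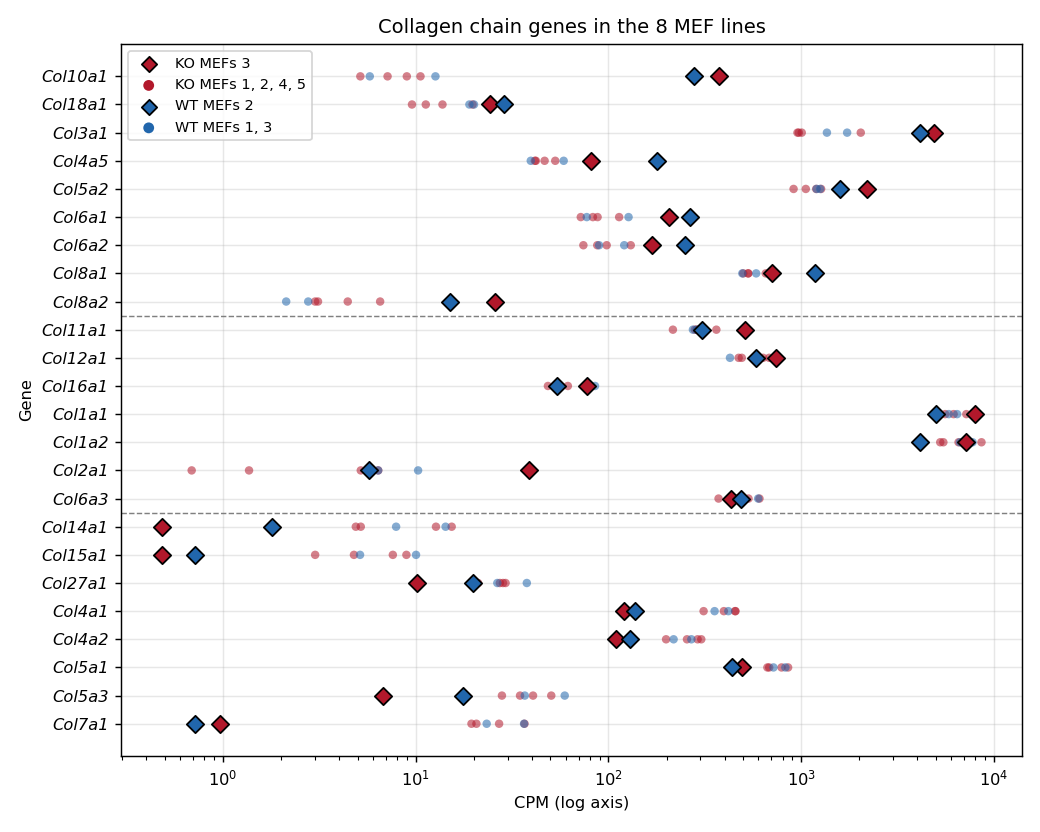
CPM on a log axis of the 24 members that averaged 5 CPM or more over the 8 MEF lines, 1 point per line, KO in red and WT in blue, with diamonds for KO MEFs 3 and WT MEFs 2. Above the upper dashed line both diamonds lie right of the other 6 lines, and below the lower dashed line both lie left of them.

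Cartilage markers moved with these lines in sum but not in every gene. Their 10 genes summed to 336 CPM in KO MEFs 3 and 400 CPM in WT MEFs 2, against 88.2 to 182 CPM in the other 6 lines. Most of that was Sox9, with 229 CPM in KO MEFs 3 and 339 CPM in WT MEFs 2, and Hapln1, with 86.7 CPM in KO MEFs 3 and 54.1 CPM in WT MEFs 2. At low levels, Comp had 6.30 CPM in KO MEFs 3 and 1.08 CPM in WT MEFs 2, against 0 CPM in the other 6. Matn4 had 5.33 CPM in KO MEFs 3 and 2.15 CPM in WT MEFs 2, against 0 to 0.752 CPM. Acan, the main cartilage proteoglycan, had 8.23 CPM in KO MEFs 3 and 0.717 CPM in WT MEFs 2, Matn1 was at 0 in both and Snorc at 0 in all lines. Of 6 bone markers, Alpl, Bglap and Ibsp were at 0 in all MEF lines and Sp7 at 0 to 0.752 CPM. Runx2 had 28.1 to 44.8 CPM and Spp1 614 to 3045 CPM in the MEF lines. The bone markers summed to 1627 CPM in KO MEFs 3 and 790 CPM in WT MEFs 2, inside the 647 to 3075 CPM of the other 6. Genes for collagen breakdown and its inhibitors summed to 12670 CPM in KO MEFs 3 and 13310 CPM in WT MEFs 2, against 2925 to 4904 CPM over 12 genes in the other 6. Most of that was the inhibitor Timp3, with 8679 CPM in KO MEFs 3 and 8919 CPM in WT MEFs 2, against 1198 to 2708 CPM in the other 6. The proteases of the list moved both ways. The collagenase Mmp14 was on the low side, with 582 CPM in KO MEFs 3 and 493 CPM in WT MEFs 2, against 605 to 684 CPM in the other 6. Mmp9 was also low, at 0.969 and 5.02 CPM in the same order, against 12.1 to 22.9 CPM. Higher were Mmp2 (95.4 and 108 CPM, against 26.3 to 49.8 CPM), Mmp3 (81.9 and 100 CPM, against 1.04 to 17.8 CPM) and Mmp16 (39.7 and 66.7 CPM, against 19.7 to 30.4 CPM). The fibroblast markers summed to 6185 CPM in KO MEFs 3 and 5506 CPM in WT MEFs 2, inside or next to the 5272 to 6098 CPM of the other 6, with Fn1 the largest part, but single markers moved both ways. Thy1 had 129 CPM in KO MEFs 3 and 103 CPM in WT MEFs 2, against 556 to 746 CPM in the other 6. Lum had 112 CPM in KO MEFs 3 and 106 CPM in WT MEFs 2, against 2.77 to 27.5 CPM in the other 6. Mural markers summed to 1915 CPM in KO MEFs 3 and 2013 CPM in WT MEFs 2, against 3369 to 5671 CPM in the other 6, and endothelial markers to 7.27 CPM in KO MEFs 3 and 5.74 CPM in WT MEFs 2, against 13.4 to 33.5 CPM. Macrophage and blood markers summed to 16.0 CPM in KO MEFs 3 and 156 CPM in WT MEFs 2, against 18.0 to 73.8 CPM in the other 6. The part of other cells in the collagen values of these lines was not tested.

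Ratios between chains of 1 trimer varied little over the MEF lines for some pairs and more for others. A ratio of counts also carries how well each 3′ end is captured, so it is compared between lines only. Col1a1 over Col1a2 was 0.834, 1.06, 1.11, 0.943 and 0.935 in the KO MEF lines and 0.875, 1.21 and 0.832 in WT MEFs, a coefficient of variation of 14.2% over the 8 lines. Col6a1 over Col6a2 varied by 12.8%, with a mean of 0.982 ± 0.147 in KO MEFs (n = 5) and 0.992 ± 0.112 in WT MEFs (n = 3). The longer type VI chain kept step less closely with Col6a1, and their ratio varied by 36.9%. Col6a3 over Col6a1 was 5.35, 5.25, 2.10, 6.42 and 5.18 in the KO MEF lines and 5.86, 1.84 and 4.70 in WT MEFs. Col4a1 over Col4a2 was 1.57, 1.57, 1.11, 1.497 and 1.55 in the KO MEF lines and 1.56, 1.06 and 1.63 in WT MEFs. This ratio varied by 15.6% over the 8 lines, close to the 14.2% of Col1a1 over Col1a2. Col5a1 over Col5a2 was 0.225 in KO MEFs 3 and 0.278 in WT MEFs 2, and 0.558 to 0.749 in the other 6 lines. Col3a1 over Col1a1, from different trimers of mixed fibrils, was 0.612 in KO MEFs 3 and 0.827 in WT MEFs 2, and 0.155 to 0.283 in the other 6 lines. In each of the ratios above KO MEFs 3 and WT MEFs 2 lay on the same side of the other 6 lines. The gap was small for Col6a1 over Col6a2. That ratio was 1.218 in KO MEFs 3, 1.059 in WT MEFs 2 and at most 1.053 in the others.

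**Figure D4:**
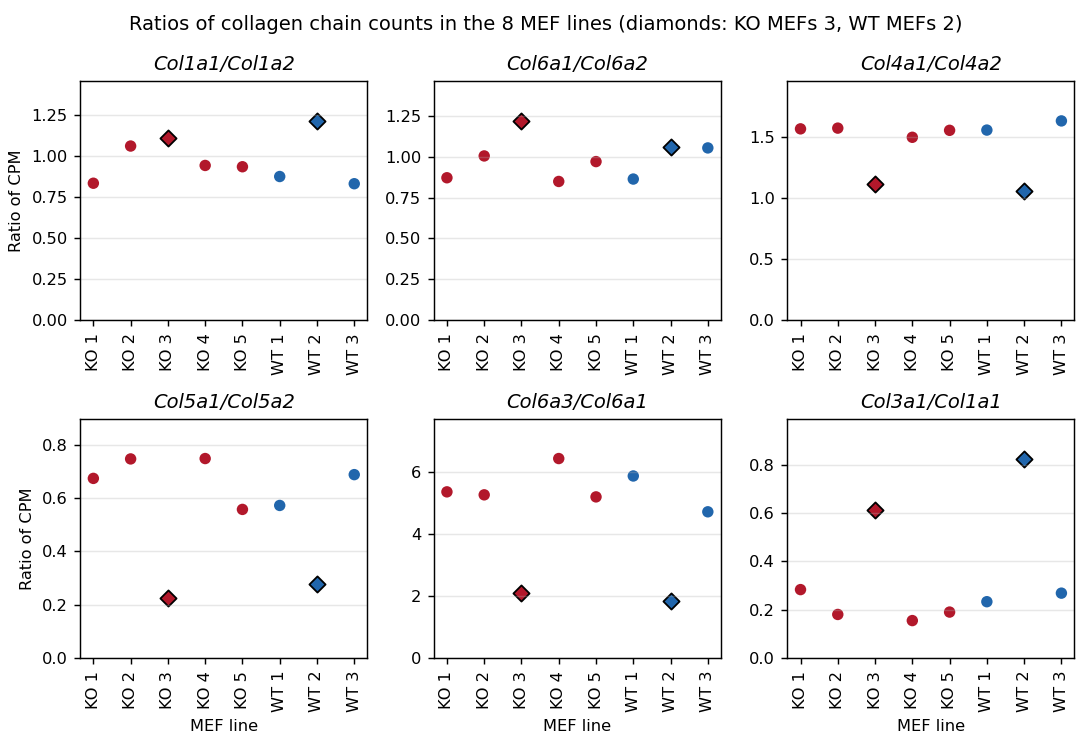
Ratios of counts of collagen chains in the 8 MEF lines, each plot from 0 on a linear axis, KO in red left of WT in blue, with diamonds for KO MEFs 3 and WT MEFs 2. Col1a1/Col1a2 and Col6a1/Col6a2 stay between 0.832 and 1.22 in all 8 lines. The 2 diamonds lie on the same side of the other 6 lines in every plot, by the smallest margin for Col6a1/Col6a2.

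Loss of H3f3a was compared within each cell type. No collagen gene passed the test in MEFs (0 of 25, edgeR) or neurospheres (0 of 10), where 0.00927% of 10789 genes and 0.00941% of 10628 genes passed. At an unadjusted p under 0.05 no member passed either, against 175 genes in MEFs and 227 in neurospheres, and DESeq2 called no member. The lines of the 2 genotypes overlapped for every member tested, 0 of 25 standing apart in MEFs (1.85% of all genes) and 0 of 10 in neurospheres (7.21%). Of the 44 members, 25 were tested in MEFs and 10 in neurospheres. Among members with too few counts for these tests, Col4a6 stood apart in MEFs, as did Col11a2 by scaling alone, and Col1a2 in neurospheres. The shares above cover tested genes only, so they give no background for these members, and no share was taken over genes with too few counts. Col1a2 had 0 to 0.698 CPM in KO neurospheres and 1.40 to 21.4 CPM in WT neurospheres, where line 1 held 56 of the 66 counts. The members' median log2 difference was -0.04 in KO MEFs, with 14 below 0 and 11 above, and -0.34 in KO neurospheres, with 6 below and 4 above. The median of all genes was 0.00 in MEFs and 0.01 in neurospheres.

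Between KO and WT MEFs the intervals were narrow for some abundant chains and wide for others. Col1a1 averaged 6402 ± 1171 CPM in KO MEFs (SD, n = 5) and 5750 ± 727 CPM in WT MEFs (n = 3), a log2 difference of 0.15 with a 95% interval of -0.24 to 0.55, and of -0.03 without KO MEFs 3 and WT MEFs 2. For Col6a3 the log2 difference was -0.09 (95% interval -0.49 to 0.31), with 481 ± 91.3 CPM in KO MEFs and 512 ± 76.3 CPM in WT MEFs. Larger differences remain within the intervals of other members, such as Col3a1 at -0.29 (95% interval -1.79 to 1.21), and for Col10a1 the interval ran from -4.40 to 3.80.

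The 3 members with the smallest p in MEFs were Col4a5, Col18a1 and Col8a1, all with lower fitted values in KO lines and an edgeR adjusted p of 1. Col4a5 had a log2 difference of -0.82 (SE 0.47) from the line values given above, where WT MEFs 2 was the high line. Without WT MEFs 2 it was 0.11, and without both WT MEFs 2 and KO MEFs 3 it was -0.09. Col18a1 had -0.53 (SE 0.33), and Col8a1 had -0.37 (SE 0.27), which was 0.12 without WT MEFs 2 and 0.04 without both lines. Without both lines no member of 26 passed.

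The 3 members with the smallest p in neurospheres were Col11a1, Col5a1 and Col9a3, each with an edgeR adjusted p of 0.999. Col11a1 had a log2 difference of -1.37 (SE 0.72), and KO lines at 8.65 to 14.3 CPM lay between the WT lines 1 (4.96 CPM) and 3 (36.5 CPM). Col5a1 had 0.93 (SE 0.53), with WT neurospheres 1 above KO neurospheres 1. Col9a3 had -1.33 (SE 0.79), and WT neurospheres 3 at 85.4 CPM set it, since the difference was 0.01 without that line.

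**Figure D5:**
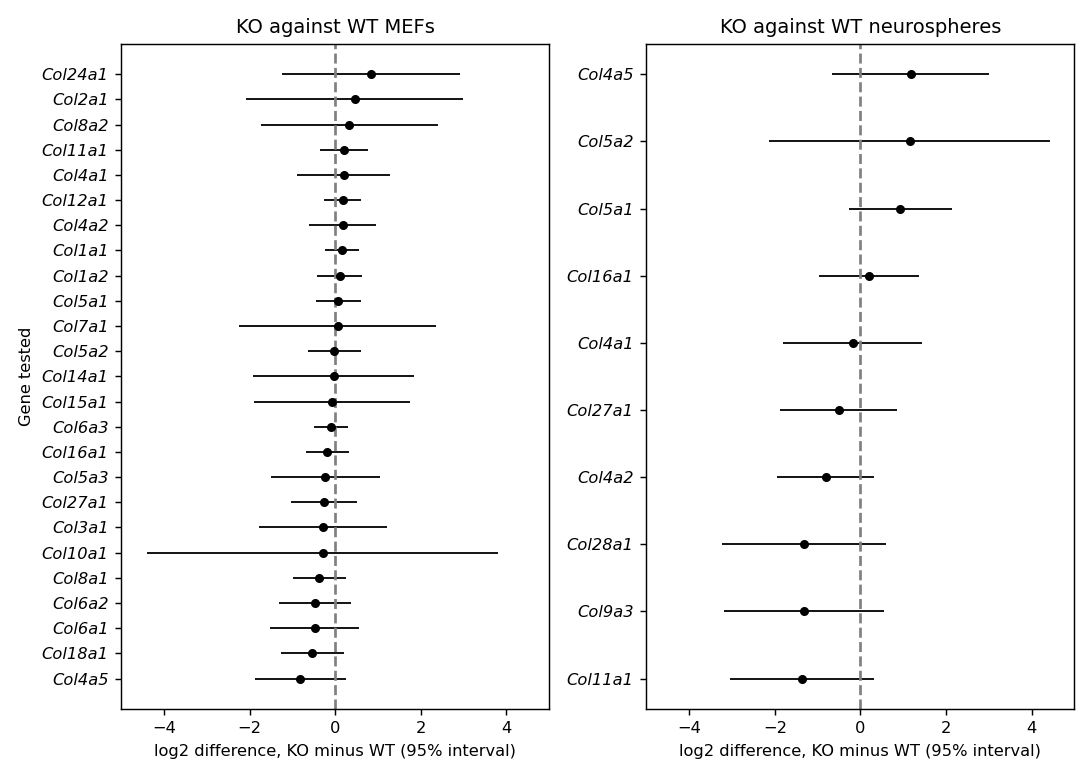
Log2 difference of KO minus WT with its 95% interval (edgeR) for the 25 members tested in MEFs, left, and the 10 tested in neurospheres, right. Every interval includes 0, and the intervals are narrow for Col1a1 and Col6a3 and wide for Col10a1.

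Whether the genotype difference was itself different between neurospheres and MEFs was tested over all 14 libraries. No member of 28 passed, nor did any of 12117 genes (0%) by edgeR, while 366 genes had an unadjusted p below 0.05 and DESeq2 called 3 genes. The 3 members at an unadjusted p under 0.05 were Col1a2 at -4.27 (SE 1.24), Col1a1 at -3.01 (SE 1.36) and Col11a1 at -1.57 (SE 0.73), all with an edgeR adjusted p of 1. Both type I values moved with WT neurospheres 1: without that line the Col1a1 value was 0.77, of the other sign, and the Col1a2 value was -2.19.

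The genes that fold, modify, cut and cross-link collagen were also lower in neurospheres. Of 28 tested maturation genes, 22 were lower and 2 higher in WT neurospheres than in WT MEFs, and 23 lower and 2 higher in KO neurospheres than in KO MEFs, with medians of -2.70 and -2.68 on the log2 scale. Of all genes, 20.8% were lower and 20.8% higher in WT neurospheres, and 26.1% lower and 25.4% higher in KO neurospheres, which is also the background of the lists that follow. The 2 higher genes were Colgalt2, a collagen galactosyltransferase (9.31 to 84.7 CPM in the neurosphere lines, 0 to 1.04 CPM in the MEF lines), and Plod1, a lysyl hydroxylase (27.0 to 148 CPM in the neurosphere lines, 20.6 to 33.9 CPM in the MEF lines). Lox, which cross-links fibrils, had 0 to 0.763 CPM in the neurosphere lines and 1601 to 4326 CPM in the MEF lines. Fkbp10, a chaperone of type I collagen, had 0 to 0.698 CPM in neurosphere lines and 64.2 to 95.1 CPM in MEF lines. The collagen receptors were split, 4 of 7 lower and 1 higher in WT neurospheres, and 4 of 6 lower and 1 higher in KO neurospheres. Itga11, the integrin chain that binds type I fibrils, was at 0 in the neurosphere lines and had 13.3 to 72.6 CPM in the MEF lines, while Ddr1, a collagen receptor kinase, was higher at 410 to 1288 CPM in the neurosphere lines, against 153 to 373 CPM in the MEF lines.

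Genes for collagen breakdown and its inhibitors were lower in neurospheres for 8 of 9 tested in WT and 10 of 11 in KO lines. Their medians were -4.52 and -6.17. Mmp14, a membrane collagenase, had 2.79 to 39.1 CPM in the neurosphere lines and 493 to 684 CPM in the MEF lines. TGF-β pathway genes, which include inducers of collagen genes, were lower for 7 of 13 in WT and 10 of 14 in KO lines, with none higher and medians of -1.31 and -1.96. Between KO and WT lines no gene of these 4 lists passed the test in MEFs (0 of 27, 6, 11 and 14) or in neurospheres (0 of 18, 5, 4 and 10).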

How the data were processed

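RNA was sequenced as 3′ tag libraries (QuantSeq FWD), per the labels' protocols, so 1 tag stands for 1 transcript and levels were not divided by length. The authors deposited, per the file headers, an estimated count (NumReads) and a TPM per transcript; Salmon 1.1.0 and edgeR are named in the submitters' processing notes, and the sources used here give no transcript set, build or counting strand. Expected counts were summed per gene over GENCODE M21 (GRCm38) and rounded. Of 116945 transcripts, 922 were not matched, with 0.239% to 0.4% of reads. The deposited TPM served as an alternative unit, summed over genes. A gene opposite to another (Col9a3 and Tcfl5, Col10a1 and Nt5dc1, Col18a1 and Slc19a1) may share its reads.

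Each comparison was fitted apart in edgeR 4.0.16 (R 4.3.3; TMM, filterByExpr, robust quasi-likelihood test), with Benjamini-Hochberg adjustment over all genes tested and a threshold of 0.05. The interaction used all 14 libraries. The fits were tested on simulated data. Counting intervals and floors (3 counts) cover counting error only. Alternatives were DESeq2 1.42.0, RLE scaling, other filters, all libraries in 1 fit, the replicate block, each library left out, and, chosen after seeing the data, both KO MEFs 3 and WT MEFs 2 left out. P-values measure the spread between lines, and whether neurospheres and MEFs came from the same embryos is not stated.

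The members, gene lists and tests were chosen with earlier results of these data known. Named members were those past the threshold or with the 3 smallest p-values in a genotype comparison, up to 12 called members each way with at least 10 CPM between cell types, the leading member of each class, and, chosen after their values were seen, members with uneven lines. From the other lists, genes with the largest differences were named.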

Additional observations from a re-analysis of the deposited data

Results flagged for a closer look

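Among the 5 KO MEF lines, 32 measures of single members, their sum and their ratios were examined for a line far from the other 4. This meant a gap above 0.71 of the whole range, which chance alone gives in about 1 in 20 for a single measure with normally spread values. All 8 that met it were KO MEFs 3. The measures share genes and lines, so the 8 are not independent and are not weighed against that rate. Its levels were 375.4 CPM for Col10a1 (5.163 to 10.59 CPM in the other 4 lines), 38.75 CPM for Col2a1 (0.6885 to 6.394 CPM), 4876 CPM for Col3a1 (955.8 to 2036 CPM), 2194 CPM for Col5a2 (912.5 to 1268 CPM) and 25.67 CPM for Col8a2 (3.009 to 6.54 CPM). Its ratios of counts were 0.6118 for Col3a1 over Col1a1 (0.1549 to 0.2834 in the other 4), 1.111 for Col4a1 over Col4a2 (1.497 to 1.572) and 2.099 for Col6a3 over Col6a1 (5.183 to 6.417). For all but Col2a1, WT MEFs 2 also lay on that side of the 6 other MEF lines. No collagen gene's genotype difference passed the test of a difference between the cell types (0 of 28, edgeR and DESeq2); over all genes edgeR called 0, with 366 at an unadjusted p under 0.05, and DESeq2 called 3.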

How the results depend on the processing

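The alternatives gave 804 values over 67 results, and 769 of these values kept their direction and their side of the threshold or stayed within their spread. No alternative called a member between KO and WT in MEFs, in neurospheres or in the interaction. The number of members higher in KO neurospheres than in KO MEFs was 1, and 2 without a filter, with at least 1 CPM in every library of a group, with all 14 libraries in 1 fit, and without KO neurospheres 2 (leaving out 1 line each gave 1 to 2). In the deposited TPM, another unit, the sums were 106.6 in KO neurospheres, 113.8 in WT neurospheres, 4926 in KO MEFs and 4837 in WT MEFs.

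Differences that changed sign, none of them called, were in KO MEFs without both KO MEFs 3 and WT MEFs 2 those of Col8a1 (0.0402), Col1a1 (-0.03), Col1a2 (-0.15), Col2a1 (-1.28), Col5a1 (-0.05) and Col7a1 (-0.21), and, for the named members among fits that left out 1 line, Col4a5 (-1.18 to 0.11) and Col8a1 (-0.59 to 0.12) in KO MEFs, Col9a3 in KO neurospheres (-1.80 to 0.0136) and Col1a1 in the interaction (-3.85 to 0.77). Without both lines 20 of 24 members were called in KO lines, and Col16a1 and Col18a1 were not. The cause was not tested in any of these.

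Over all genes, KO against WT called 1 gene in MEFs, 0 with the replicate block and 3 without both lines, and 1 in neurospheres, 7 with DESeq2, 2 without a filter and 0 to 2 with 1 line left out. Correlations of same-numbered lines ran from -0.622 to 0.253 and gave no sign of pairing by replicate number. Whether same-numbered lines shared an embryo or a batch was not tested. With the number as a replicate block, no member was called between genotypes, 20 members were called in KO lines (24 without it) and 20 in WT lines (20 without it) between cell types; over all genes the KO count was 3266, against 5885. KO MEFs 4 and 5 have no partner. RLE in place of TMM moved the median of all genes by under 0.1. Depth limits the 16 untested members, which had at most 7.79 CPM in any line.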
